A study of Mus musculus with 2 samples.

Results

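The genes described here are the mouse miRNA genes with later registry numbers, from 1800 to just below 4000. A member is any miRNA gene of the GENCODE M21 annotation whose symbol is Mir followed by a number in that range, with or without a letter or copy suffix. Of the 2202 miRNA genes in the tables, 157 carry such a symbol. Mir1981 and the genes of the imprinted Dlk1-Dio3 region of chromosome 12 were left out by the rule, 7 genes together, which leaves 150 members.

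The RNA came from the adrenal gland of female B6CASTF1/J mice, first-generation hybrids, at 2 months of age, without a stated treatment. The labels give 1 group with replicates 1 and 2 and no second condition. Both replicates carry the same donor label, so that they are separate animals rests on their tissue labels. The SDs below otherwise measure only the spread between these samples. Sense-strand gene counts totalled 2839732 in replicate 1 and 2280028 in replicate 2, and levels are given per 1000000 of these counts (CPM). A single read equals 0.352 CPM in the first library and 0.439 CPM in the other.

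A canonical miRNA is cut from a hairpin in its primary transcript by Drosha and then by Dicer, and its bases 2 to 8, the seed, pair with target messages. Other routes skip the Drosha cut. A mirtron is a short intron whose ends, set by splicing, are also the ends of the hairpin. Some small nucleolar RNAs (snoRNAs), which guide the modification of ribosomal RNA, and their Cajal-body relatives (scaRNAs), which guide that of spliceosomal RNA, also give rise to miRNA-sized fragments. Some miRNA genes named after deep sequencing became common belong to these classes. The adrenal gland is a mixture of steroid-producing cortex and catecholamine-producing medulla.

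Sequences of the 5 most abundant members, of the other detected whole-intron member and of one opposite-strand pair are shown first, because the results turn on where they come from and on which reads they share with other genes. They are mature sequences from RefSeq in GRCm38.p6, written 5′ to 3′, with the seed in capitals. RefSeq gave a mature sequence for 131 of the 150 members and for 27 of the 28 detected ones. The reads were counted per hairpin, so the counts do not say which arm was sequenced.
miR-1839-5p: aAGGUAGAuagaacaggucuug
let-7b-5p: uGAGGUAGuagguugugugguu
miR-1843a-5p: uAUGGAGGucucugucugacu
miR-1843b-5p: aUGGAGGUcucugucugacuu
miR-3068-5p: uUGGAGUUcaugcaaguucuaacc
miR-3068-3p: gGUGAAUUgcaguacuccaaca
miR-3102-5p: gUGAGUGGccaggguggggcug
miR-3102-3p: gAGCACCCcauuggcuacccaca
miR-3547-5p: gUGGGAAGagggguggggcccggga
miR-3547-3p: uGAGCACCaccccucucucag
miR-3065-5p: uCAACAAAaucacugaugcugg
miR-338-3p: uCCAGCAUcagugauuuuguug

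The miRNAs let-7b-5p and miR-338-3p belong to no member and are shown for comparison. Bases 2 to 7 of miR-1839-5p are the same 6 letters as bases 3 to 8 of let-7b-5p, so its seed is a let-7 seed moved by 1 base and is a different seed. The same holds against all 10 detected let-7 genes with a mature sequence in RefSeq. Without a shift, bases 2 to 7 are also those of miR-196a-5p and miR-196b-5p. Bases 3 to 8 of miR-1839-5p are bases 2 to 7 of miR-379-5p and miR-1193-5p. The 5p sequences of miR-1843a and miR-1843b have a run of 20 bases in common, which starts at base 2 of the former and base 1 of the latter. Their seeds therefore differ as well. The sequences miR-3065-5p and miR-338-3p come from opposite strands of one place and overlap over 21 bases. Among the detected members, the 50 mature sequences held 50 different seeds, and the 195 mature sequences of all members held 189.

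Of the 150 members, 28 (18.7%) were detected, which means 10 or more counts in both libraries, against 15.5% of all 2202 miRNA genes. Another 51 members held at least 1 count without reaching that, and 71 held no count in either library. An observed 0 leaves room for as many as 3 counts (1.06 and 1.32 CPM in replicates 1 and 2), so these 71 were not detectable at this depth rather than shown to be absent. Detection was lower the later the number: 254 of 514 genes numbered under 1000 (49.4%), 8 of 22 numbered from 1000 to below 1800 (36.4%), the members, and 26 of 470 numbered 4000 or above (5.53%). No test was run on these shares. Genes whose symbol is not Mir followed by a number were detected in 21 of 1039 cases. They include the let-7 genes, predicted genes and genes whose symbols begin with mmu-mir. Among the last, mmu-mir-3535 held 1054 and 1264 reads in replicates 1 and 2 (371 and 554 CPM). Its number lies in the members' range, but the symbol rule leaves it out.

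**Figure D1:**
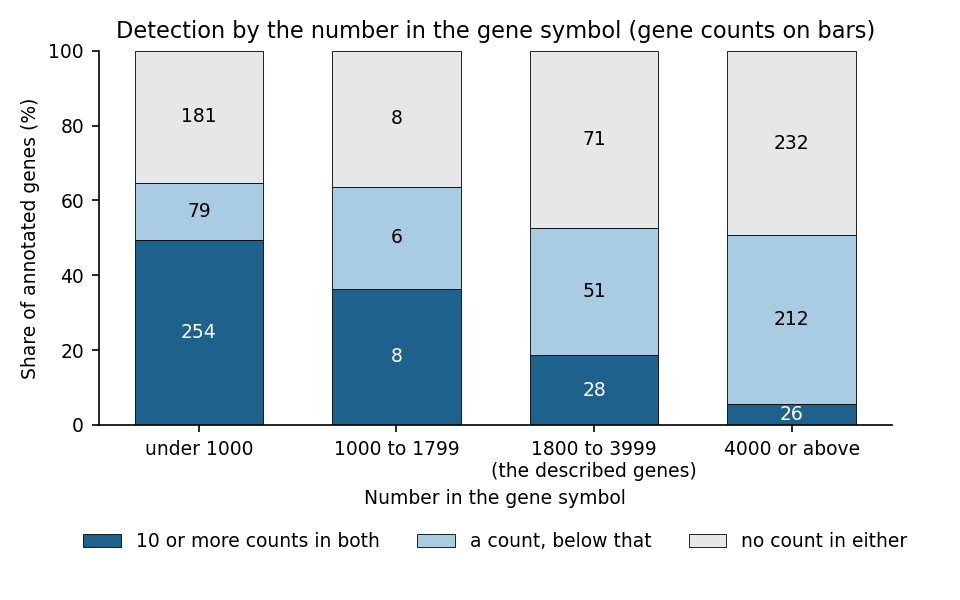
Share of annotated miRNA genes (y axis, percent) with 10 or more counts in both libraries, with a count below that, or with no count, by the number in the gene symbol (x axis), with the number of genes printed on each bar segment. The detected segment holds 254, 8, 28 and 26 genes from the lowest to the highest numbers.

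The members held a small share of the tissue's miRNA reads. They took 0.244% of gene counts in replicate 1 (exact Clopper-Pearson 95% interval 0.239% to 0.250%) and 0.291% in replicate 2 (0.284% to 0.298%), a mean of 0.268% ± 0.0330 (SD, n = 2). The median mean level of the 28 detected members was 16.7 CPM, against 131 CPM over all 342 detected genes and 8.67 CPM over the 26 detected genes numbered 4000 or above. Only 4 members exceeded 100 CPM in both libraries and none exceeded 1000 CPM in both, while 67 genes numbered under 1000 did. The 5 most abundant members held 84.4% and 83.3% of all member counts in replicates 1 and 2.

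**Figure D2:**
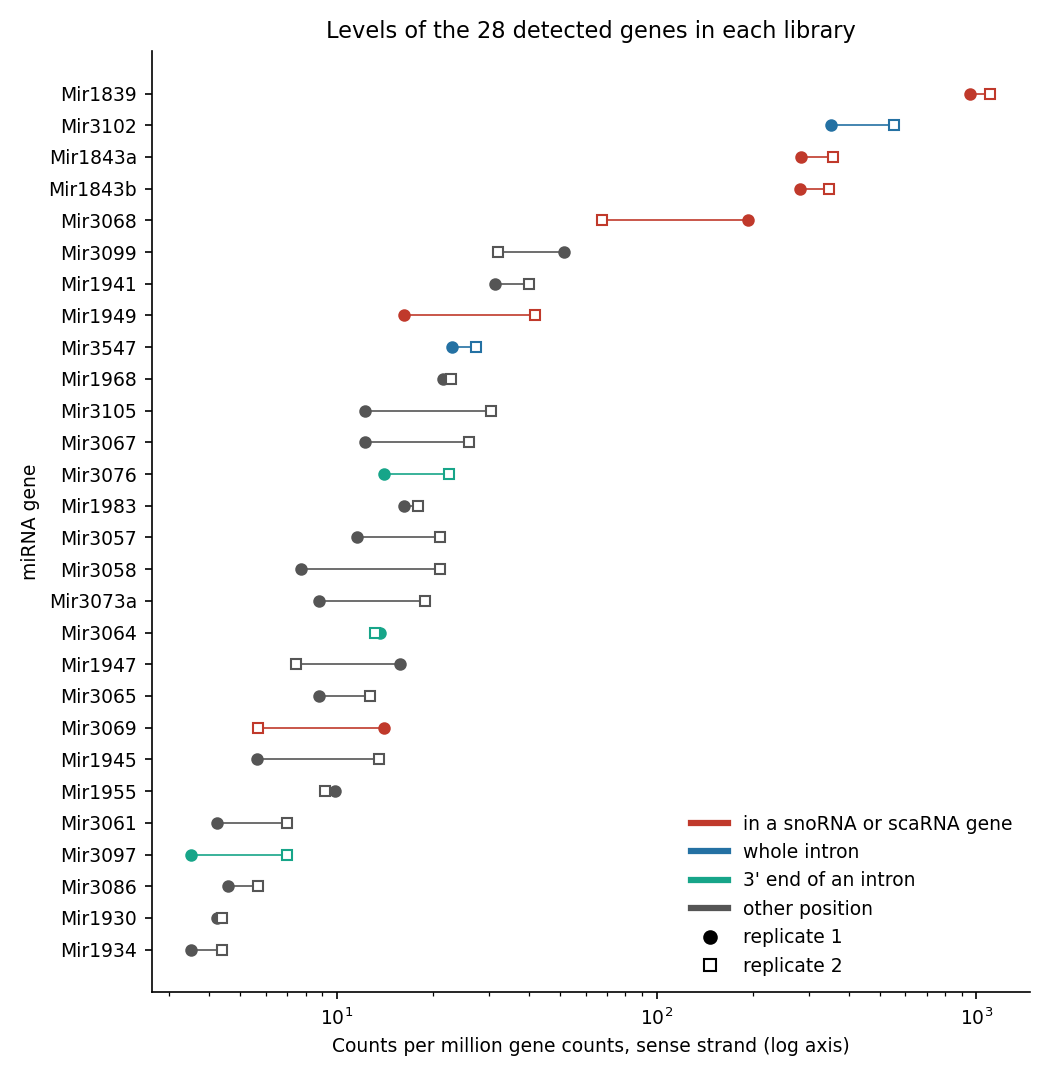
Level of each of the 28 detected members in CPM (x axis, log scale) in replicate 1 (filled circles) and replicate 2 (open squares), with genes ordered by mean level (y axis) and coloured by position. The leading gene, Mir1839, lies at 955 and 1101 CPM, and most others lie below 100 CPM.

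Members inside snoRNA or scaRNA genes held most of the counts. There are 7 such members and 6 of them were detected, and the other 22 detected members lie outside such genes. This small class took 71.3% of member counts in replicate 1 and 65.9% in replicate 2. Among all other miRNA genes in the tables, 17 lie in a snoRNA or scaRNA gene and 9 of those were detected. Overlap with such a gene means that a read from the small RNA itself and a read from a Dicer product cannot be told apart in gene counts.

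Mir1839 (chr7:81529916-81529988, plus strand) was the most abundant member and the 81st of 2202 genes by mean level. It held 2712 and 2510 reads in replicates 1 and 2, or 955 and 1101 CPM, a mean of 1028 ± 103 CPM (SD, n = 2). The annotation places 66 of its 73 hairpin bases in a scaRNA gene of 127 bases that bears the same symbol, and the whole hairpin in the lincRNA gene 2900076A07Rik, in an exon of 1 transcript and an intron of others. Mir1839 alone made up 39.1% and 37.8% of all member counts. Its reads stood beside 920634 and 717387 reads of the let-7 genes, whose seed its own resembles at a shift of 1 base.

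Mir1843a (chr12:80391613-80391677, minus strand) lies wholly in the scaRNA gene Scarna3b within the gene Dcaf5, which encodes a subunit of a ubiquitin ligase. It held 803 and 810 reads, or 283 and 355 CPM. Mir1843b (chr1:159340358-159340423, plus strand) lies in Scarna3a, in an intron of the ubiquitin ligase gene Cop1. It held 797 and 788 reads, or 281 and 346 CPM. The genes are on different chromosomes, and their counts were nearly equal in both libraries. Reads that fit both places were not assigned to either, so both counts rest on the reads that tell the genes apart and are uncertain.

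Mir3068 (chr12:87437679-87437757, minus strand) lies in a snoRNA gene of the same symbol, in an intron of coding transcripts of Alkbh1, which encodes a nucleic acid demethylase. It held 547 and 154 reads in replicates 1 and 2, or 193 and 67.5 CPM. Mir3069 lies in Scarna13, in an intron of the snoRNA host gene Snhg10, and held 40 and 13 reads. Mir1949 overlaps a snoRNA gene of its own symbol and held 46 and 95 reads. The annotated miRNA gene nearest to it, Gm49347 at 2495 bases, held 281 and 284 reads. The remaining member of this class, Mir3084-1 in the snoRNA gene Gm23658, held no read. Its mature sequences are the same as those of Mir3084-2, so reads of them could not be assigned and its level is unknown. The detected members of the class ranged from Mir3069 to the most abundant member. Mir3068 and Mir3069 went the opposite way to Mir1949 between the libraries.

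Members whose hairpin is an intron from end to end owed their counts mainly to 1 gene, Mir3102. An end was taken to coincide with a splice site within 2 bases, and 3 members met this at both ends in an annotated transcript. Mir3102 (chr7:100882306-100882409, minus strand) is an intron of 104 bases of Arhgef17. It held 995 and 1263 reads, or 350.4 and 554 CPM, and ranked next after Mir1839 at 452 ± 144 CPM (SD, n = 2). RefSeq lists 4 mature sequences on it, since an inner pair lies within the outer one on the same hairpin. Bases 2 to 7 of miR-3102-3p are the same 6 letters as those of miR-29, although base 8 differs.

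Mir3547 (chr17:25245551-25245638, minus strand) is an intron of 88 bases of Baiap3, a gene linked to dense-core vesicle traffic in neuroendocrine cells. It held 65 and 62 reads, or 22.9 and 27.2 CPM, and the libraries lay close together. Mir1982, an intron of 74 bases of the antizyme gene Oaz1, held 7 and 6 reads and was not detected. The 3 whole-intron members held 15.4% and 20.1% of member counts, and the members that neither span an intron nor lie in a snoRNA or scaRNA gene held 13.3% and 14.1%. Of the 19 other miRNA genes that span an intron, 3 were detected, with Mir1981 as the highest at 1233 and 1367 reads.

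A further 11 members end at the 3′ splice site of a longer intron but begin inside it, and none begins at the 5′ splice site alone. This is the shape of a tailed mirtron, in which one end is set by splicing. Of these, 3 were detected. Mir3076, in the transketolase gene Tkt, held 40 and 51 reads. Mir3064, in the RNA helicase gene Ddx5, held 39 and 30 reads, and the predicted miRNA gene Gm25994 at 411 bases held none. Mir3097, in the gene of the G protein regulator Rgs12, held 10 and 16 reads. Of the undetected ones, 7 held at least 1 read, and Mir1963 in the ryanodine receptor gene Ryr1 held none. The first base inside the exon is part of the annotated hairpin in Mir3064 and Mir3076, so the annotation counts them as exonic.

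Host genes were common among the detected members and among all members. On the same strand as a transcript of another gene lay 24 of the 28 detected members, and 21 still did when only protein-coding transcripts were used. Over all 150 members, 66 lay in an intron, 42 overlapped an exon and 42 lay outside any transcript. The number detected was 14, 10 and 4 in that order. With protein-coding transcripts only, 56 of all 150 members and 7 of the 28 detected ones lay outside. Shares in a host over all miRNA genes were not taken, and no test was run. Host messages were not measured in these libraries, so whether a host and its miRNA are made together was not tested.

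Apart from the classes above, Mir3099 was the most abundant member within a longer intron. It lies in Usp29, a paternally expressed imprinted gene, and held 146 and 73 reads. Mir1968 lies in Grtp1 and held 61 and 52 reads, or 21.5 and 22.8 CPM. Mir1941 lies in an intron of the antisense gene Gm35853, opposite the keratin gene Krt80, and held 89 and 91 reads. Mir1941 and Mir1968 had nearly equal counts in both libraries, and Mir3099 was higher in replicate 1.

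Several intronic members had more reads in replicate 2, which was the shallower library. Mir3105, in the gene of the synaptic scaffold Shank2, held 35 and 69 reads. Mir3067, in the gene of the extracellular matrix protein Smoc1, held 35 and 59 reads. The hairpin of Mir3058 lies in Nudt4, which encodes a diphosphoinositol phosphatase, and held 22 and 48 reads. Mir3073a, in the asparaginase gene Aspg, held 25 and 43 reads. Reads of Mir1947, in the metallopeptidase gene Lmln, went the other way, with 45 and 17. Mir1955 in Phf21a held 28 and 21 reads, and Mir3086 in Hspa12a held 13 and 13.

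Exonic positions were of several kinds. Mir3061 lies with all 91 bases in an untranslated exon of Ppp2ca, the catalytic subunit of protein phosphatase 2A, and held 12 and 16 reads. Mir3057 overlaps an exon of Apba3 by 26 of its 91 bases and held 33 and 48 reads. Mir1930 lies in an intron of coding transcripts of the ubiquitin-conjugating enzyme gene Ube2g2 and in an exon of a transcript that retains it, and held 12 and 10 reads. Mir1839, Mir3102, Mir1843a, Mir3068 and Mir1949 likewise overlap an exon only in noncoding transcripts.

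Outside any transcript on their own strand lay Mir1983, Mir3065, Mir1945 and Mir1934. Mir1983, described as a fragment of a transfer RNA precursor, held 46 and 41 reads on chromosome 13, and its annotated hairpin of 132 bases is the longest of the detected members. Its seed is that of miR-412-3p. Mir1945 held 16 and 31 reads, and Mir1934 held 10 and 10, the lowest mean level of the detected members at 3.95 ± 0.611 CPM (SD, n = 2). Of the other members fixed as described from repeats or small RNAs, Mir3473a, Mir3473b, Mir1957a and Mir1957b held no read in either library, and Mir1944 was not analysed here.

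Strand decided the counts of 6 members, which lie opposite another annotated miRNA gene. Reads of such pairs were assigned to neither gene when strand was ignored, and all 6 held 0 counts in that column. For the 144 other members, the antisense column held 4 and 3 reads against 6865 and 6531 sense reads, so sense reads made up nearly all of their reads. Mir3065 held 25 and 29 reads opposite Mir338, an miRNA known from nerve cells and glia, which held 1288 and 363. The member took 1.90% of the pair's reads in replicate 1 and 7.40% in replicate 2. Its own reads were nearly level, and the partner was lower in replicate 2.

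The pair of Mir3073a and Mir3073b, both members, gave 25 and 43 reads on the first strand and 2 and 0 on the other. Mir3074-1 held 1 read in replicate 1 and 23 in replicate 2, opposite Mir24-1 with 243 and 117 reads. Mir3074-2, opposite Mir24-2 with 644 and 199 reads, held none. The mature miR-3074-5p is the same at both places, so reads of that sequence could not be assigned to either gene, and the counts are uncertain. On the other strand miR-24-3p overlaps miR-3074-5p over 20 bases at Mir24-2, so the counts of Mir24-1 and Mir24-2 can miss reads likewise. Near these members on the other strand lie the highly expressed genes of the Mir23 and Mir27 clusters, such as Mir23b with 94178 and 60690 reads at 641 bases. Mir3107 held 17 and 7 reads opposite Mir486, an erythroid miRNA, with 187 and 133. Sequence shared between genes of one locus was not searched for, so whether reads fit both strands of this pair was not tested.

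**Figure D3:**
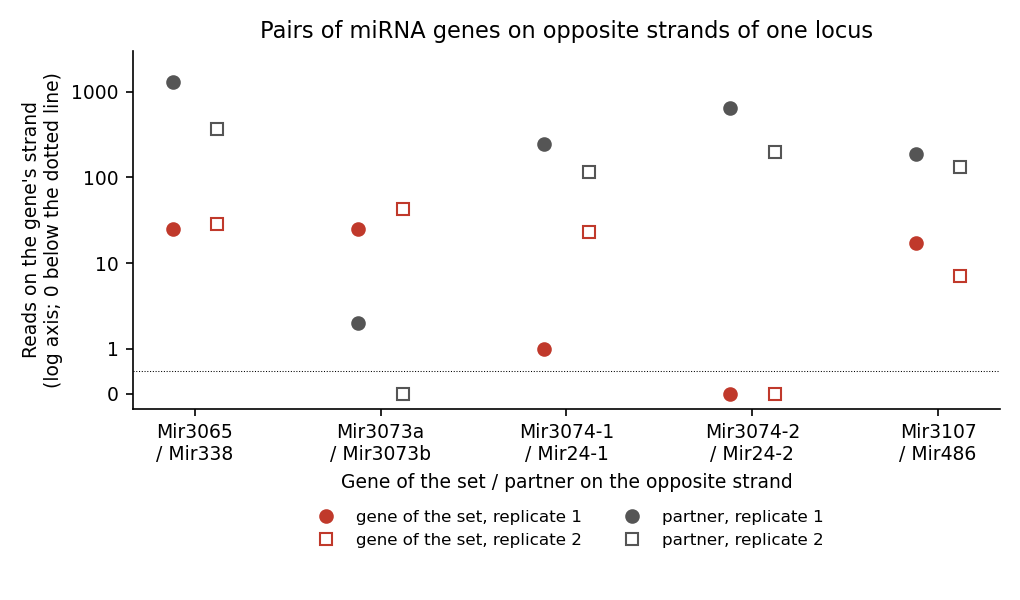
Reads on the gene's own strand (y axis, log scale, 0 drawn below the dotted line) for 5 pairs of miRNA genes on opposite strands (x axis), the member in red and its partner in grey, with replicate 1 filled and replicate 2 open. The partner is higher in 4 pairs, and in the pair of Mir3073a the named member is higher with 25 and 43 reads. Reads that fit several places are not counted, so the heights within a pair can miss reads.

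Just inside the detection threshold were Mir1934 with 10 and 10 reads, Mir1930 with 12 and 10 and Mir3097 with 10 and 16. Just outside it were Mir3962 with 15 and 9, Mir1964 with 16 and 7 and Mir3572 with 7 and 10. All members below detection together held 2.71% and 2.56% of member counts.

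Members listed for known settings in other tissues were not detectable at this depth. Mir2861 and Mir3960, a pair described in osteoblasts that lies 11 bases apart, held no read. Mir1912, in the serotonin receptor gene Htr2c, held none either, and its neighbours Mir1264 and Mir764 held 0 and 2 and 1 and 0 reads. None of the 11 members on the X chromosome was detected, and 5 of the 10 on chromosome 12 were. Those 5 include Mir1843a, Mir3068 and Mir3069 of the snoRNA or scaRNA class. Over all 150 members 18.7% were detected. Shares by chromosome over all miRNA genes were not taken, so these counts set no chromosome apart.

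The detected members were spread unevenly over runs of numbers. Runs were taken as 10 or more members with gaps of at most 14 between their numbers. In the run from 3057 to 3113, 15 of 54 members were detected, and 9 of 42 were in the run from 1927 to 1983. None was detected of the 17 numbered 1892 to 1912, the 14 numbered 3470 to 3475 or the 12 numbered 3960 to 3971. The share detected was 18.7% over all members and 15.5% over all miRNA genes, and no test was run on the runs. Reads that fit several places were not assigned, so these runs were not shown to be unexpressed. The 3 members of lowest number, Mir1839, Mir1843a and Mir1843b, were all detected, and each lies in a scaRNA gene. Between 3057 and 3113 the numbers follow the chromosomes in text order in all 51 consecutive steps, so that number and chromosome go together in this run.

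Few members with sequence in more than one hairpin were detected. In 25 members the hairpin has 20 or more consecutive bases that also occur in another annotated hairpin that does not overlap it. Of these, 2 were detected (Mir1843a and Mir1843b) and 19 held no count. Of the 125 without such a stretch, 26 were detected and 52 held no count. Since reads that fit several places were not assigned, and were 28.8% and 25.3% of all reads, the level of the 25 members cannot be read from their counts. Copies elsewhere in the genome were not analysed here.

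The hairpins of detected and undetected members overlapped in shape. The median predicted folding energy was -45.6 kcal/mol per 100 bases in the 28 detected members, -45.2 in the 51 with fewer counts and -39.8 in the 71 without a count. The median GC content was 53.8%, 52.9% and 51.0% in the same order. The 6 detected members in snoRNA or scaRNA genes had shorter and more weakly folded hairpins, with a median of 68.0 bases and -34.0 kcal/mol per 100 bases, against 85.0 bases and -48.8 in the other 22. All 6 had an energy above the median of the 22, and the ranges overlapped. These values are a description without a test.

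**Figure D4:**
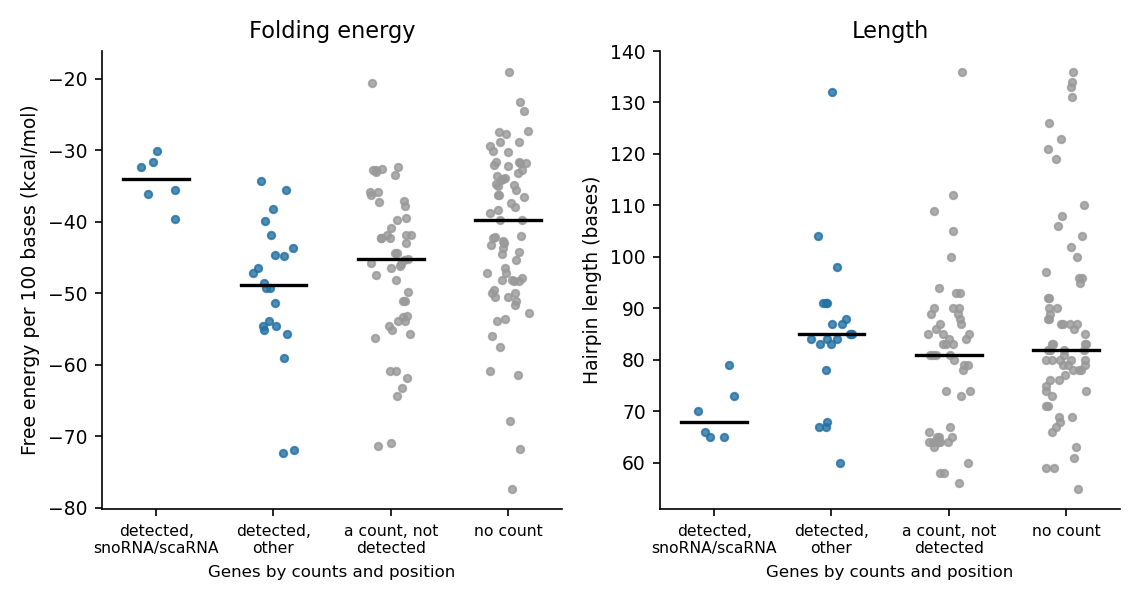
Predicted folding energy in kcal/mol per 100 bases (left) and hairpin length in bases (right) of all 150 members (points) by counts and position (x axis), with the median as a bar. The 6 detected members in snoRNA or scaRNA genes have a median of -34.0 kcal/mol per 100 bases and the other 22 detected members one of -48.8.

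The remaining comparison was of replicate 2 with replicate 1. It compares these libraries and no conditions, since the design holds 1 group, and over 2 samples the smallest exact two-sided p is 0.5. Each gene was tested by an exact two-sided binomial test of its counts given the library totals, adjusted by Benjamini-Hochberg over the 369 genes whose mean count was 10 or more. A gene passed at an adjusted p under 0.05 with at least a 2-fold difference. The test covers counting error only. Among the 32 members tested, 10 passed (31.2%), against 69 of all 369 genes (18.7%). Members are mostly low in counts, and among all 135 genes with a mean count from 10 to under 100, 36 passed (26.7%). Of the 26 members in that range, 9 passed.

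The differences that passed among the detected members lay between 2.10-fold and 2.85-fold. Higher in replicate 2 were 7 members (8.67% of all genes tested passed in that direction). Mir3058 was 2.72-fold higher in replicate 2 (95% interval 1.61 to 4.73, adjusted p 1.29e-04 by the exact binomial test). The others were Mir1949 at 2.57-fold, Mir3105 at 2.46-fold, Mir1945 at 2.41-fold, Mir3073a at 2.14-fold and Mir3067 at 2.10-fold. Mir3074-1, with a single read in replicate 1, had a ratio of 28.6 with a counting interval from 4.65 to 1180.0. The calls of Mir3067 and Mir3073a were lost when the libraries were scaled by TMM or by the median of ratios.

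Higher in replicate 1 were 3 members (10% of all genes tested passed in that direction). Mir3068 was 2.85-fold higher there (95% interval 2.38 to 3.43, adjusted p 5.87e-35 by the exact binomial test), and it was the only one to pass of the 6 members whose mean count was 100 or more. Mir3069 was 2.47-fold and Mir1947 2.13-fold higher in replicate 1. The abundant members differed less than 2-fold: Mir3102 was 1.58-fold higher in replicate 2 (95% interval 1.45 to 1.72) and Mir1839 was 1.15-fold higher (1.09 to 1.22). Among the 28 detected members, 22 were higher in replicate 2, and 20 and 19 were under TMM and median-of-ratios scaling, which shift the median log2 ratio of all genes by -0.11 and -0.16.

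**Figure D5:**
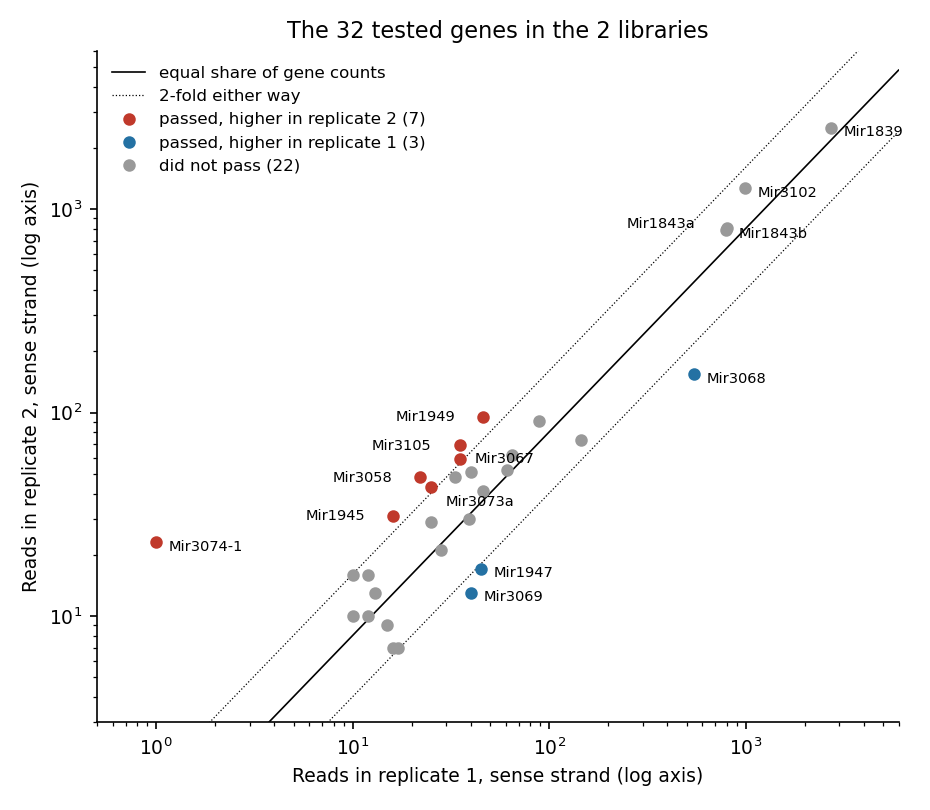
Reads of the 32 tested members in replicate 1 (x axis, log scale) and replicate 2 (y axis, log scale), with the line of equal shares of gene counts, dotted lines at 2-fold, and colours for the outcome of the exact binomial test. Mir3068, with 547 and 154 reads, is the member of high count beyond the 2-fold line.

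Markers of other cells differed to unequal extents between the same libraries. The 9 skeletal and heart muscle miRNA genes summed to 953 CPM in replicate 1 and 4.39 CPM in replicate 2, with 3 and 6 of the 9 at 0; Mir133a-1, Mir133a-2 and Mir133b were at 0 in both. The 3 erythroid genes summed to 643 and 14488 CPM with none at 0, mostly Mir451a at 469 and 13557 CPM, while Mir486 lay at 65.9 and 58.3 CPM. The endothelial gene Mir126a lay at 43203 and 59463 CPM, and the 4 smooth muscle and fibroblast genes summed to 23163 and 25511 CPM with Mir199a-1 at 0 in both. The 4 white blood cell genes summed to 1331 and 1051 CPM with none at 0, and the liver gene Mir122 lay at 3721 and 2358 CPM. Of the lists for the labelled tissue, 4 of 4 cortex or steroidogenic genes were detected, at 37582 and 16516 CPM. Most of this was Mir21a, an miRNA of many tissues, at 33612 and 13012 CPM. Detected as well were 4 of 4 neuroendocrine genes, at 42776 and 40149.5 CPM. Since the liver gene was also detected, detection alone does not identify the tissue. The part of these cell types in the members' differences was not tested. Removing the muscle and blood cell genes from the totals left the same 10 members passing. That step changes only the totals, by a log2 shift of -0.02, so it cannot address that part. In such bulk tissue, fewer cells of a type and less RNA per cell cannot be told apart. Reads that fit several places were not assigned, so the levels of single marker genes, such as Mir133a-1, Mir199a-1 and Mir486, can leave reads out.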

How the data were processed

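The authors deposited a table of counts per miRNA gene for each sample, as whole numbers that are not normalized. Per the deposited sample information, reads were placed on mm10 and counted against GENCODE M21. The sources used here name neither aligner nor counter. Each table has an unstranded, a sense and an antisense column, and the sense column was used because its total is larger than that of the antisense one.

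Rows that name no gene held 69.4% and 73.7% of the 9278190 and 8659511 reads and were kept out of totals. Reads aligned to several places were 28.8% and 25.3% of all reads. Symbols, coordinates and transcripts came from GENCODE M21, and sequences from RefSeq GRCm38.p6.

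A member was in an intron, in an exon (any overlap in any transcript, retained introns included) or outside transcripts of other genes on its strand. The splice site tolerance of 2 bases was chosen after the data were seen. Folding used ViennaRNA 2.7.2, TMM factors edgeR 4.0.16, and the exact binomial test and Clopper-Pearson intervals SciPy 1.17.1. The exact binomial test was tried on simulated counts. Intervals and floors cover counting error only, since no molecular identifiers are stated.

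Named were all detected members, those that passed between the replicates, members just below detection, members opposite another miRNA gene with their partners, neighbours within 10 kb of a detected member and members of fixed lists. Members and lists were chosen with earlier results of these data known. Alternatives were other thresholds, columns and scalings, and leaving out each replicate.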

Additional observations from a re-analysis of the deposited data

How the results depend on the processing

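The number of detected members was 37 at 5 counts, 20 at 20 counts and 16 at 10 CPM in both libraries. It was 26 without regard to strand, without members sharing a stretch and without members opposite another miRNA gene, and 22 without those in snoRNA or scaRNA genes, an alternative chosen after seeing the data. With 1 library alone it was 30 (replicate 2) or 33 (replicate 1). The mean share of 0.268% became 0.307% without regard to strand, 0.309% without the most abundant gene, 0.165% without Mir1839 and 0.0847% without members in snoRNA or scaRNA genes (chosen after seeing the data), and was 0.244% or 0.291% in 1 library alone. For genes numbered 4000 or above, the detected share was 10.9% at 5 counts and 2.55% at 20, and for those numbered under 1000 it was 60.7% without genes sharing a stretch. The members' own share ran from 13.3% to 24.7% over these settings. The number of detected members in a host was 21 to 32.

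Of the 10 members that passed between the replicates, 8 did under TMM or median-of-ratios scaling, which lost Mir3067 and Mir3073a. At a mean count of at least 100, only 6 members were tested and 1 passed. Without regard to strand 8 passed, as Mir3073a and Mir3074-1 have no counts there, and without a filter 12 did, with Mir3077 and Mir3088 added. No paired analysis was possible because there is 1 group. Depth limits the calls of members near 10 counts.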
